A study of Mus musculus with 6 samples.

Results

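The facilitative hexose transporters are the membrane proteins that let glucose, fructose and related molecules cross cell membranes down their concentration gradients. The members described here are 10 genes of the Slc2a family (Slc2a1, Slc2a2, Slc2a3, Slc2a4, Slc2a5, Slc2a6, Slc2a8, Slc2a9, Slc2a10 and Slc2a12), taken because the diet that made the mice diabetic was rich in fat and fructose. Every probe set annotated to one of these symbols was used, which gave 10 probe sets for 10 genes, out of 35556 probe sets and 19938 genes in all. No member had a second probe set or shared its probe set with another gene.

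The arrays came from migrating keratinocytes of mouse skin wounds, taken by laser capture from the tip of the epithelial tongue on day 3 after wounding. The diabetic group held 3 samples from mice given a high fat, high fructose diet for 16 weeks from 8 weeks of age, and the normal group held 3 samples from mice kept on a control diet over the same period. All animals were wounded, and the strain, the sex and the blood glucose were not given in the sources used here. The samples of a group are titled biological replicates, but no label says that each came from its own mouse, so the p-values cover the spread between these samples and nothing wider. The question addressed is whether the genes for hexose uptake differed in wound keratinocytes of diabetic mice.

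Mammalian hexose transporters differ in substrate, affinity and location. Glut1, encoded by Slc2a1, is widespread and is known as the main glucose transporter of epidermal keratinocytes, while Glut4, encoded by Slc2a4, is held inside fat and muscle cells until insulin sends it to the surface. Glut5, encoded by Slc2a5, carries fructose, and several further relatives sit mainly on membranes inside the cell. Much of the control of these proteins acts on their traffic to the surface, which an RNA measurement does not show.

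Upstream sequences are given for some of the members for which RefSeq sequence (GRCm38.p6) was at hand. These are Slc2a2, with the largest positive difference, Slc2a9, whose groups did not overlap, and Slc2a1, the keratinocyte transporter. The sequences used here held no window for Slc2a3 or for Slc2a4, the member with the difference of largest size. Each run covers the 250 bases before the annotated start, 5′ to 3′ on the gene's strand. Capitals mark every match, on either strand, to the GC box GGGCGG, the hypoxia-response core ACGTG, the CCAAT box (CCAAT) or the TATA box TATAAA.
Slc2a1, chr4:119108495-119108744, plus strand: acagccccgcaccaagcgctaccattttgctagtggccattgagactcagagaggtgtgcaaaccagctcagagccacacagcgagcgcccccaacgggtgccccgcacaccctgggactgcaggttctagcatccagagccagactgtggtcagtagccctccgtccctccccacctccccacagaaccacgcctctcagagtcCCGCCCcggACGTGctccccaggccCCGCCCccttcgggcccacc
Slc2a2, chr3:28697653-28697902, plus strand: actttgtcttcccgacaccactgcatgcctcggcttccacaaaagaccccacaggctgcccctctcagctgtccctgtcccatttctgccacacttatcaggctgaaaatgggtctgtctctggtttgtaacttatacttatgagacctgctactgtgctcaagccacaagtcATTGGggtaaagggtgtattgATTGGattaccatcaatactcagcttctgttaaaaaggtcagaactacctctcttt
Slc2a9, chr5:38483386-38483635, minus strand: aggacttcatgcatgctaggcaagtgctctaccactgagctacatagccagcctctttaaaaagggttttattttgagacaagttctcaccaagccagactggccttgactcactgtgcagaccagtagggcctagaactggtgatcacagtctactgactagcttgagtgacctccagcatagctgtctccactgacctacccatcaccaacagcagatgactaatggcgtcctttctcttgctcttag

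The Slc2a1 window held 2 GC boxes and, between them, 1 hypoxia core starting at position -36, and its GC content was 66.4%. The Slc2a2 window held 2 CCAAT boxes and had a GC content of 47.2%, and the Slc2a9 window held no match to these motifs, at 48.8% GC. The Slc2a9 window lies before 1 annotated start of a gene with several transcripts, and its other starts were not read. Of the 8 members with an upstream window, 4 held a GC box, 4 a CCAAT box and 1 a hypoxia core. None of the 8 held a TATA box or the E-box CACGTG, whose letters contain the hypoxia core on both strands. Among 32851 windows of this length, 32.7% held a GC box, 33.8% a CCAAT box, 16.6% a hypoxia core, 12.4% a TATA box and 6.0% the E-box, with a median GC content of 52.4%. A match is a description of these letters and not a bound site.

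Values are log2 probe set signals, on which a difference of 1 is a doubling, and differences are diabetic minus normal. They come from a limma fit over all 19938 genes, with its standard error (SE) and Benjamini-Hochberg adjustment over all genes. A background limit was set on each array at the 95th percentile of the signals of 1194 chemosensory receptor genes (olfactory and vomeronasal), a class with little known expression in skin. It was 1.98, 2.01 and 2.11 on the diabetic arrays, against 2.11, 2.11 and 2.12 on the normal arrays. Over all genes, 29.4% to 36.6% were above the limit on the diabetic arrays, against 27.4% to 28.7% on the normal arrays. Of 16 keratinocyte markers, 3 exceeded the limit on every array and 6 on none. E-cadherin (Cdh1), the protein stained to find the cells, was among the 6. The keratin genes Krt5 and Krt14 of that list were each above the limit on 2 diabetic and 0 normal arrays. Of 12 skeletal muscle genes, 6 were above it on all 6 arrays. A place above or under the limit thus does not by itself show whether keratinocytes expressed a gene.

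No transporter gene differed between diabetic and normal keratinocytes past the adjusted threshold of 0.05. In limma 0 of the 10 members passed, and 0 had an unadjusted p under 0.05. Over all genes 0 of 19938 passed (0%), and 1109 (5.56%) had an unadjusted p under 0.05. The members' adjusted p-values ran from 0.893 to 0.980. In sign, 7 members were higher and 3 lower in the diabetic group, while 48.7% of all genes were higher. Their median difference was 0.07, beside a median of -0.0039 over all genes. The differences themselves ran from -0.34 for Slc2a4 to 0.28 for Slc2a2.

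Like most genes on these arrays, the members lay near background. None of the 10 exceeded the background limit on every array, 7 exceeded it on some and 3, namely Slc2a3, Slc2a5 and Slc2a10, on none. By array, 3, 6 and 2 members were above the limit on the diabetic arrays, against 0, 4 and 1 on the normal arrays. Against the highest of the 6 limits, 2.12, these counts became 2, 2 and 2 on the diabetic arrays, against 0, 4 and 1 on the normal arrays. Over all genes, 17.4% exceeded the limit on every array and 51.5% on none. The median signal of the members was 1.91, 2.04 and 1.86 on the diabetic arrays, against 1.83, 1.85 and 1.71 on the normal arrays. It exceeded the median of all genes, 1.79 to 1.83, on every array but normal replicate 3. A signal at or under the limit gives no more than a bound on the RNA, so the differences below are differences in array signal.

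**Figure D1:**
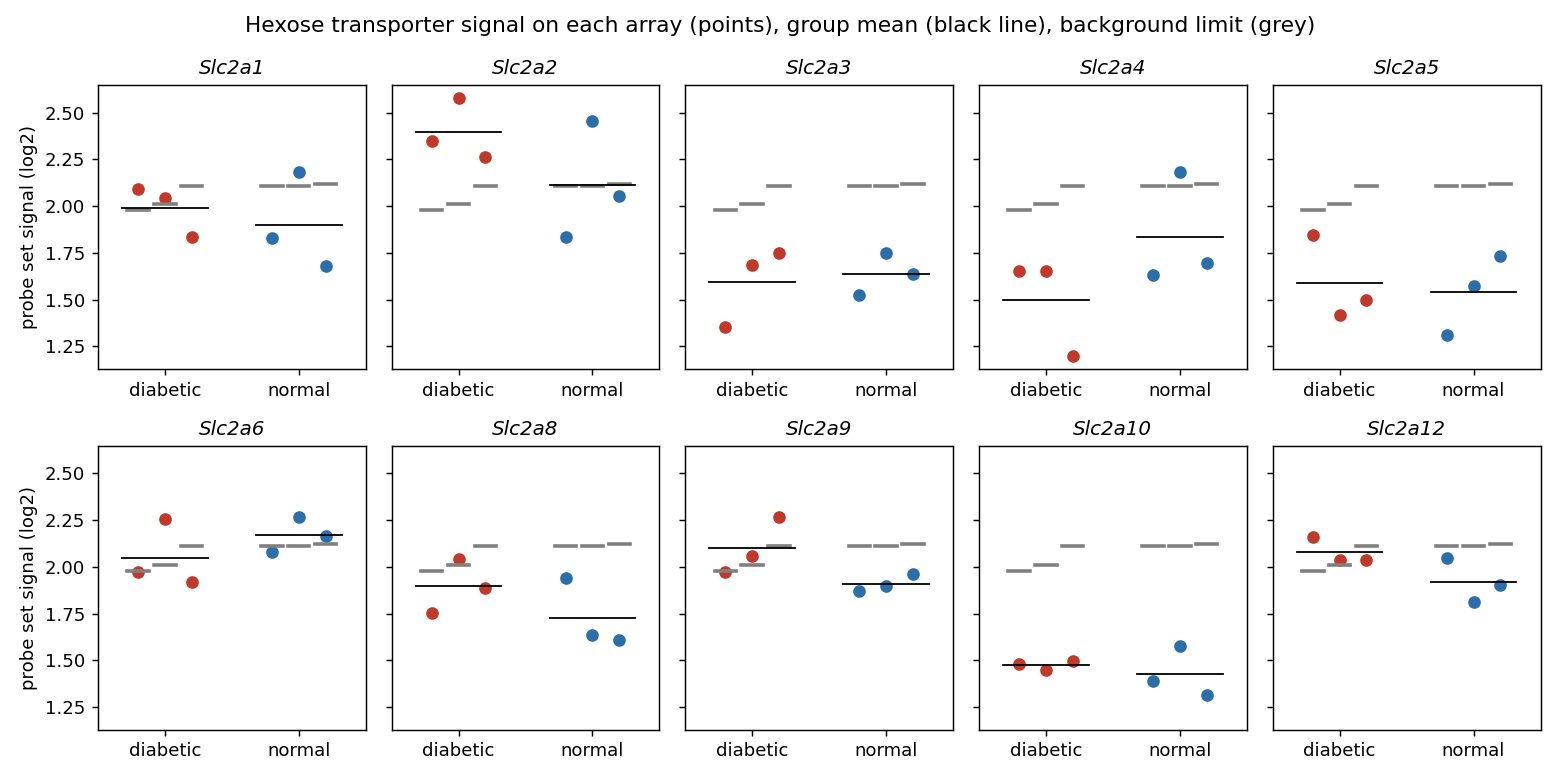
Log2 probe set signal of the 10 transporter genes, 1 panel a gene, with each diabetic (red) and normal (blue) array as a point in replicate order, the group mean as a black line and each array's background limit as a grey bar. The diabetic points lie wholly above the normal points only for Slc2a9, and the points of Slc2a3, Slc2a5 and Slc2a10 lie under the limit on all 6 arrays.

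Among the classic glucose transporters, Slc2a1 (probe set 10507594, chromosome 4) had signals of 2.09, 2.04 and 1.83 on the diabetic arrays, against 1.83, 2.18 and 1.68 on the normal arrays. The groups overlapped, the highest value being that of normal replicate 2, and the gene was above the limit on 2 diabetic arrays and 1 normal array. Against the highest limit it was above on 0 diabetic arrays and 1 normal array, so that order turned. Its mean was 1.99 ± 0.14 in diabetic and 1.90 ± 0.26 in normal samples (SD, n = 3 each), a difference of 0.09 (SE 0.15, limma adjusted p 0.961). The 95% confidence interval of the difference, -0.22 to 0.41, lay within 1.5-fold either way.

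Slc2a2 (10491171, chromosome 3) encodes Glut2, the low-affinity transporter of liver, gut, kidney and insulin-secreting cells, which also carries fructose. It was at 2.35, 2.58 and 2.26 on the diabetic arrays, against 1.83, 2.46 and 2.05 on the normal arrays. All 3 diabetic arrays were above the limit, against 1 normal array, and normal replicate 2 lay within the diabetic range. The means were 2.40 ± 0.16 and 2.12 ± 0.32 in diabetic and normal samples (SD, n = 3 each), a difference of 0.28 (SE 0.17, limma adjusted p 0.893). Its interval, -0.08 to 0.64, reached past 1.5-fold. The size leaned on the normal arrays, since it was 0.45 without normal replicate 2 and 0.14 without normal replicate 1.

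Slc2a4 (10387743, chromosome 11), the insulin-responsive transporter gene, had the difference of largest size among the 10 members. It was at 1.65, 1.65 and 1.20 on the diabetic arrays, against 1.63, 2.18 and 1.69 on the normal arrays. Diabetic replicate 3 was lowest and normal replicate 2 highest, the only array above the limit, while the other 4 arrays lay between 1.63 and 1.69. The means were 1.50 ± 0.26 in diabetic and 1.84 ± 0.30 in normal samples (SD, n = 3 each), and the difference was -0.34 (SE 0.17, limma unadjusted p 0.0666, adjusted p 0.893). It was -0.16 without normal replicate 2 and -0.19 without diabetic replicate 3. In size the difference stood at the 96.4th percentile of all genes, of which 3.59% differed by at least as much. Its 95% interval ran from -0.70 to 0.03.

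Fat and muscle are the tissues best known for Slc2a4, and markers of both were read on the same arrays. Of 12 skeletal muscle genes, 11 were higher and 1 lower in the diabetic group, while 48.7% of all genes were higher. Of the 12, 6 were above the limit on all 6 arrays. The summed log2 signal of the 12 was 29.6 to 31.5 on diabetic and 28.1 to 29.2 on normal arrays. Slc2a4 itself was lower in the diabetic group and above the limit on 1 array. Of 9 measured adipocyte genes, 7 were higher and 2 lower, 1 (Plin1) was above the limit on all 6 arrays, and the sum was 17.5 to 18.5 on diabetic and 16.8 to 18.0 on normal arrays. Adipoq, the adiponectin gene that defines fat cells, was under the limit on all 6. The part of these cells in the Slc2a4 difference was not tested. In captured material, fewer cells of a type and less RNA per cell cannot be told apart.

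Slc2a3 (10547641, chromosome 6), encoding the high-affinity transporter of neurons and many white blood cells, was at 1.36, 1.68 and 1.75 on the diabetic arrays, against 1.53, 1.75 and 1.64 on the normal arrays. All 6 signals were under the limit and the groups overlapped. The difference was -0.04 (SE 0.13, limma adjusted p 0.980). Signals of this kind do not show whether the gene was expressed.

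The fructose and urate carriers came next, chosen with the fructose-rich diet in mind. Slc2a5 (10510516, chromosome 4), the fructose transporter gene of the small intestine, was at 1.84, 1.42 and 1.50 on the diabetic arrays, against 1.31, 1.57 and 1.73 on the normal arrays. Every value was under the limit, and the groups were interleaved. The difference was 0.05 (SE 0.14, limma adjusted p 0.978), with an interval of -0.26 to 0.36.

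Slc2a9 (10529671, chromosome 5) encodes Glut9, a transporter known mainly for carrying urate. It was at 1.97, 2.06 and 2.27 on the diabetic arrays, against 1.87, 1.90 and 1.96 on the normal arrays. Its groups did not overlap, although diabetic replicate 1 lay barely above normal replicate 3. It was above the limit on 2 diabetic and 0 normal arrays, and against the highest limit on 1 and 0. The means were 2.10 ± 0.15 in diabetic and 1.91 ± 0.05 in normal samples (SD, n = 3 each), a difference of 0.19 (SE 0.12, limma adjusted p 0.894). Without diabetic replicate 3 it was 0.11. In an exact permutation test, two-sided, p was 0.1, the smallest that 3 arrays against 3 allow. Among the members, 1 of 10 thus had groups apart and 9 did not. Over all genes 10.7% had groups apart in either direction and 5.02% with the diabetic group higher (5.66% with it lower), so the members' share was near that of all genes.

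The transporters known mainly from internal membranes, and their relatives, had differences of -0.12 to 0.17. Slc2a6 (10481164, chromosome 2), a lysosomal transporter gene of spleen and white blood cells, was at 1.97, 2.26 and 1.92 on the diabetic arrays, against 2.08, 2.26 and 2.17 on the normal arrays. Diabetic replicate 2 reached the normal range and the other 2 diabetic arrays lay under it. It was above the limit on 1 diabetic and 2 normal arrays, and the difference was -0.12 (SE 0.13, limma adjusted p 0.924). Dropping diabetic replicate 2 gave -0.22, and dropping diabetic replicate 3 gave -0.05.

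Slc2a8 (10481759, chromosome 2), an intracellular glucose transporter gene best known from testis and brain, was at 1.75, 2.04 and 1.89 on the diabetic arrays, against 1.94, 1.64 and 1.61 on the normal arrays. Normal replicate 1 lay within the diabetic range, and the 1 array above the limit was diabetic replicate 2, which did not reach the highest limit. Its difference was 0.17 (SE 0.13, limma adjusted p 0.911), which was 0.09 without diabetic replicate 2 and 0.27 without normal replicate 1.

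Slc2a10 (10478692, chromosome 2), whose loss in humans causes arterial tortuosity syndrome, was at 1.48, 1.45 and 1.49 on the diabetic arrays, against 1.39, 1.58 and 1.31 on the normal arrays. The diabetic arrays lay inside the range of the normal arrays, with an SD of 0.02 against 0.14, and all 6 were under the limit. The difference was 0.05 (SE 0.10, limma adjusted p 0.971), and its interval, -0.18 to 0.27, was the narrowest among the members.

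Slc2a12 (10362104, chromosome 10), a transporter gene of muscle, fat and prostate, was at 2.16, 2.04 and 2.04 on the diabetic arrays, against 2.05, 1.81 and 1.90 on the normal arrays. Normal replicate 1 lay just above the lower pair of diabetic arrays, so the groups overlapped. It was above the limit on 2 diabetic and 0 normal arrays, and against the highest limit on 1 and 0. The difference was 0.16 (SE 0.12, limma adjusted p 0.911), or 0.10 without normal replicate 2. For Slc2a4, Slc2a8, Slc2a9 and Slc2a12 1 group was under the limit on all of its arrays, and the brighter group's mean did not exceed the dimmer group's limit, so no fold in RNA is given.

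**Figure D2:**
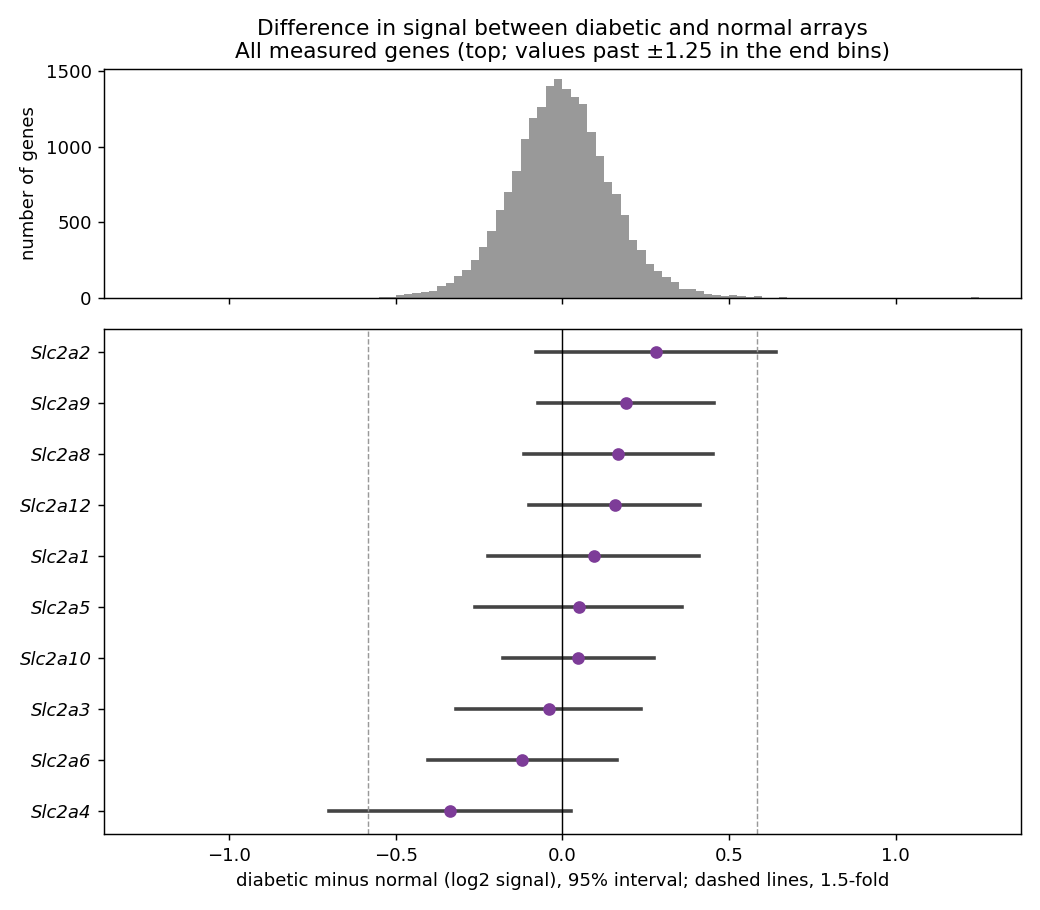
Diabetic minus normal difference in log2 signal for all 19938 genes (top, histogram) and for each transporter gene (bottom, point with its 95% confidence interval from limma, and dashed lines at 1.5-fold). Every interval of the 10 members includes 0, and 8 lie within the dashed lines.

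The intervals show what differences in signal these arrays leave room for. For 8 of the 10 members the 95% interval lay within 1.5-fold in either direction, the exceptions being Slc2a2 and Slc2a4, and for all 10 it lay within 2-fold. The members' SEs, 0.10 to 0.17, had a median of 0.13, like that over all genes. Leaving out 1 array turned the sign of Slc2a1, Slc2a3, Slc2a5 and Slc2a10 at least once. The other 6 members kept their sign in each such fit.

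**Figure D3:**
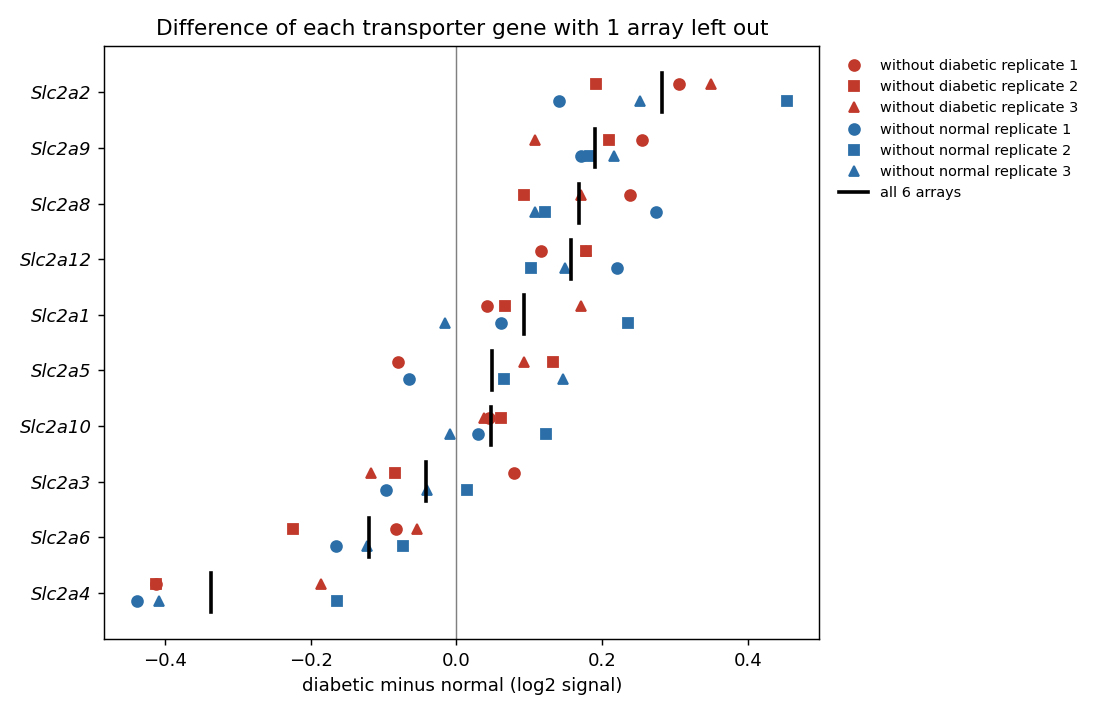
Diabetic minus normal difference in log2 signal of each transporter gene with all 6 arrays (black bar) and with 1 array left out (red, a diabetic array; blue, a normal array; the shape gives the replicate). Points lie on both sides of 0 for Slc2a1, Slc2a3, Slc2a5 and Slc2a10, and the values of Slc2a4 run from -0.44 to -0.16.

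White blood cells also use members of the family, Slc2a3 and Slc2a6 among them. Of 10 neutrophil genes 2 were higher and 8 lower in the diabetic group, while 48.7% of all genes were higher. Of the 10, 1 was above the limit on all 6 arrays. The summed log2 signal of the 10 was 17.1 to 17.4 on diabetic and 17.8 to 19.3 on normal arrays. Retnlg was the gene above the limit on all 6, while 5 of the 10, Ly6g among them, were under it on every array. Of 11 macrophage and monocyte genes 5 were higher and 6 lower, none was above the limit on all 6 arrays, and the sum was 17.1 to 17.3 on diabetic and 16.9 to 18.0 on normal arrays. The part of these cells in the Slc2a6 difference was not tested.

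The 16 keratinocyte markers were split 7 higher and 9 lower, with summed signals of 30.9 to 32.3 on diabetic and 32.3 to 34.7 on normal arrays. Fibroblast genes were split 5 higher and 4 lower, endothelial genes 3 and 5, and both measured red blood cell genes were lower in the diabetic group. The sum of the red blood cell genes was 4.46 to 5.28 on diabetic and 4.76 to 4.99 on normal arrays. In limma 0 markers of the 8 lists passed the adjusted threshold, and 3 had an unadjusted p under 0.05. These were Trp63 of the keratinocyte list and Trem1 of the neutrophil list, both lower in the diabetic group, and Myh2 of the muscle list, which was higher. The share of all genes was 5.56%, so 1 in each of these lists of 16, 10 and 12 genes is near it.

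Genes around the transporters were read from 5 companion lists, and in limma 0 members of any list passed after adjustment. Other hexose and polyol carriers were split evenly, 8 higher and 8 lower. Their median was -0.00024, with differences of -0.13 to 0.27. Their smallest p belonged to Slc45a2, a transporter gene of melanocytes, at 2.07, 2.34 and 2.21 on the diabetic arrays, against 2.00, 1.71 and 2.10 on the normal arrays, a difference of 0.27 (SE 0.14). The sugar efflux gene Slc50a1 differed by -0.13, Slc2a7, a close relative of the fructose transporter gene, by 0.14 and Slc45a4 by -0.12. All signals of Slc50a1 and Slc45a4 were under the limit. At an unadjusted p under 0.05 there were 0 of the 16. Groups did not overlap for 0 of the 16, against 10.7% of all genes.

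Enzymes that phosphorylate hexoses or handle fructose and polyols had 18 measured members of 24, 8 higher and 10 lower, with a median of -0.03. Hk3, the hexokinase gene of myeloid cells, was at 2.03, 2.04 and 2.14 on the diabetic arrays, against 2.42, 2.34 and 2.26 on the normal arrays. All 6 signals were above their own array's limit, although diabetic replicates 1 and 2 lay under the highest limit, 2.12. The groups did not overlap, with a difference of -0.27 (SE 0.12, limma unadjusted p 0.0404, adjusted p 0.887). Hkdc1, a hexokinase relative, differed by 0.21 (SE 0.12) and was above the limit on 3 diabetic and 0 normal arrays. Its diabetic replicate 1, at 2.05, lay under the highest limit. The glucose-6-phosphatase gene G6pc differed by 0.19 and the aldo-keto reductase gene Akr1b8 by -0.13, both with all signals under the limit. Of the 18, 1 had an unadjusted p under 0.05 (Hk3), a share near the 5.56% of all genes. Groups did not overlap for 3 of the 18, against 10.7% of all genes, a count too small to read as an excess.

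Genes that move transporters to the surface or hold them there had 27 measured members of 30, 17 higher and 10 lower, with a median of 0.02. Akt2, the kinase through which insulin releases Glut4 vesicles, was at 3.39, 3.65 and 3.46 on the diabetic arrays, against 3.02, 3.11 and 3.31 on the normal arrays. The groups did not overlap and all 6 signals were above the limit, with a difference of 0.36 (SE 0.15, limma unadjusted p 0.0362, adjusted p 0.877). Akt2 lies on chromosome 7, but the number of its probe set, 10374364, lies among those of genes on chromosomes 10 and 11. Probe set numbers here mostly run by chromosome, and whether this probe set measures Akt2 was not tested. Rab10, a small GTPase of Glut4 vesicles, was at 2.21, 1.74 and 2.07 on the diabetic arrays, against 1.80, 1.74 and 1.51 on the normal arrays, a difference of 0.32 (SE 0.14, limma unadjusted p 0.0426, adjusted p 0.887). Its groups overlapped, and it was above the limit on 1 array of the 6, diabetic replicate 1. The exocyst gene Exoc7 differed by 0.21. Of the 27, 2 had an unadjusted p under 0.05, Akt2 and Rab10, both higher in the diabetic group. Over all genes 5.56% had such a p in either direction, and 2.64% with the diabetic group higher. A count of 2 is too small to read as an excess. Groups did not overlap for 2 of the 27, against 10.7% of all genes.

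Transcription factors and a coactivator known to act on transporter genes had 22 measured members of 25, 11 higher and 11 lower, with a median of 0.0020. Ppargc1a, a coactivator linked to Slc2a4 in muscle, differed by -0.32 (SE 0.12, limma unadjusted p 0.0240, adjusted p 0.839), with groups that did not overlap but signals under the limit on all 6 arrays. Sp3, a factor known to bind GC boxes, was at 3.20, 3.21 and 2.92 on the diabetic arrays, against 2.71, 2.58 and 3.04 on the normal arrays, a difference of 0.34 (SE 0.16, limma adjusted p 0.893). Pdx1, a regulator of Slc2a2 in insulin-secreting cells, differed by 0.19 and the liver X receptor gene Nr1h3 by -0.22. Of the 22, 1 (Ppargc1a) had an unadjusted p under 0.05, a share near the 5.56% of all genes. It was lower in the diabetic group, as were 2.92% of all genes at that p. Groups did not overlap for 2 of the 22, against 10.7% of all genes.

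Urate handling, listed because of Slc2a9, had 9 measured members, 3 higher and 6 lower, with a median of -0.14. The organic anion transporter gene Slc22a6, known from the kidney, was at 2.29, 2.39 and 2.57 on the diabetic arrays, against 2.15, 2.06 and 2.00 on the normal arrays. The groups did not overlap, with 3 diabetic arrays and 1 normal array above the limit, and the difference was 0.35 (SE 0.13, limma unadjusted p 0.0167, adjusted p 0.833). The urate exporter gene Abcg2 differed by -0.25, most of it from normal replicate 3, at 2.24 against 1.61 and 1.62 on the other normal arrays. Slc17a1, a phosphate and urate carrier gene, differed by -0.15 and the urate oxidase gene Uox by 0.11, both with all signals under the limit. Of the 9, 1 had an unadjusted p under 0.05 (Slc22a6), against 5.56% of all genes. Groups did not overlap for 3 of the 9, against 10.7% of all genes, and the list is too small to read this as an excess.

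**Figure D4:**
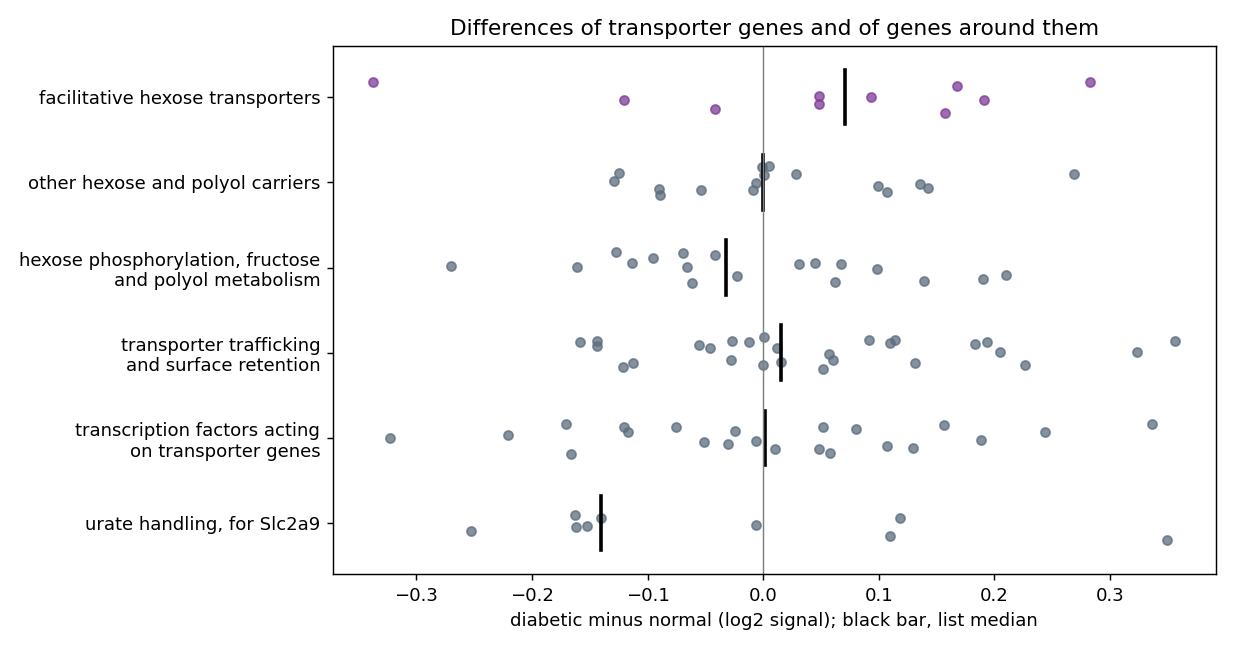
Diabetic minus normal difference in log2 signal for the transporter genes and for the measured members of the 5 companion lists, 1 point a gene with the list median as a black bar. The medians lie between -0.14 for urate handling and 0.07 for the transporters, and the points of every list lie on both sides of 0.

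The genes whose pattern over the 6 arrays lay nearest to that of Slc2a2, the member with the highest mean signal, were Syngr1, Gm5946 and Efnb3. The measure was the root mean square distance between mean-centred log2 signals, taken over the 3466 genes that exceeded the limit on every array, and it was 0.058, 0.075 and 0.077. Syngr1 was at 2.49, 2.80 and 2.58 on the diabetic arrays, against 2.11, 2.69 and 2.25 on the normal arrays, high and low on the same arrays as Slc2a2. These neighbours were picked as the closest of all those genes, and the likeness is a description of these 6 arrays.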

How the data were processed

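Biotin-labelled RNA of 6 laser-captured samples was measured on whole-transcript arrays. The deposited values are log2 probe set signals, 1 for each of 35556 probe sets. The base was taken from the values, since other bases would exceed a 16-bit scanner. Partek appears, with no version, in the submitters' processing notes. The sources used here do not give the background correction, the normalization or the summarization. Medians of the arrays were 1.75 to 1.80, so no scaling was added, and 0 columns belonged to other series. The small number of arrays limits the precision.

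An annotation table gave 1 symbol for 21789 probe sets, several for 1621, and did not name the other 12146. Symbols were updated by gene ID (GRCm38.p6, 21698 matched). The brightest probe set stood for each of the 999 genes with several. The groups were compared by limma (version 3.58.1, under R 4.3.3; eBayes with intensity trend, group as the only term), with no filter on dim genes. The fit was tested on simulated data. Members, lists and the background limit were chosen with earlier results of these data known. Named genes were all members, up to 4 of each companion list by smallest unadjusted p, and 3 neighbours of the brightest member, and 1 of these is not reported here. Other genes (Cdh1, Krt5, Krt14, Plin1, Adipoq, Retnlg, Ly6g, Trp63, Trem1, Myh2) were chosen as markers after their values were seen. Alternatives covered scaling, variance model, array weights, filters, probe set handling, a replicate block and each array left out.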

Additional observations from a re-analysis of the deposited data

How the results depend on the processing

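Over 16 alternatives, 0 members passed the adjusted threshold in any, the smallest adjusted p being 0.658 (Slc2a2 without normal replicate 2, difference 0.454, unadjusted p 0.0126). The median member difference stayed above 0, from 0.0453 to 0.157, the highest under both filters on dim genes, which kept 5 and 7 members. The split of 7 higher and 3 lower also held after quantile normalization and median centring, and was 5 and 5 without normal replicate 3. Signs turned in 6 single-member values, all with 1 array left out: Slc2a1 (-0.016) and Slc2a10 (-0.0089) without normal replicate 3, Slc2a3 (0.079) and Slc2a5 (-0.080) without diabetic replicate 1, Slc2a3 (0.014) without normal replicate 2 and Slc2a5 (-0.065) without normal replicate 1. The highest or lowest values of these members with 1 array left out were 0.236 for Slc2a1, -0.118 for Slc2a3, 0.146 for Slc2a5 and 0.123 for Slc2a10. The cause was not tested. Over all genes, leaving out 1 array gave 0 to 2 genes past the threshold, 2 without diabetic replicate 2 and 1 without diabetic replicate 3. Same-numbered arrays did not deviate together over all genes (correlations of -0.018, 0.0079 and 0.014), and the numbers were not taken as pairs. As 51.5% of all genes exceeded the limit on no array, these correlations cannot exclude a pairing or a shared batch. With the replicate number as a block, 0 members and 0 genes passed, the median member difference was 0.07 and Slc2a4 had an unadjusted p of 0.0314 (adjusted 0.853). Without normal replicate 1 its difference was -0.439 (unadjusted p 0.0354, adjusted 0.864), and besides the block and the fits without normal replicate 1 or 2, no alternative gave a member with an unadjusted p under 0.05. A filter to genes above the background limit on at least 1 array was chosen after seeing the data and left 7 members, with 0 passing. Signal near background limits every member.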

Other observations

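The replicate 2 arrays of both groups held the most members above their background limits, with 6 on the diabetic array and 4 on the normal array, against 0 to 3 on the other 4 arrays. Slc2a12 had the identical deposited value of 2.04 on diabetic replicates 2 and 3, to every digit given. At least 2 of the 6 arrays shared an identical value for 777 of the 19938 genes.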
